A study of Homo sapiens with 20 samples.

Results

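The genes described here encode the translation initiation factors eIF1 to eIF6 and the elongation factors eEF1 and eEF2, with their kinases, binding proteins and methyltransferases. They were chosen by symbol, from those that begin with EIF1 to EIF6 or EEF1 and EEF2, leaving out the helicase genes EIF4A1, EIF4A2 and EIF4A3, the kinase gene EIF2AK2 and pseudogenes. A gene also needed a peak in at least 1 iCLIP library, which left 61 of 19362 gene IDs. U2AF2 had a peak in 61 of them, hnRNPA1 in 58 and SRSF1 in 51, and 16 genes had a peak in all 16 libraries.

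iCLIP crosslinks a protein to RNA in cells, pulls it down and sequences the bound fragments. The study mapped 3 splicing proteins in TREX FLP-In 293T cells, an established line from human embryonic kidney: hnRNPA1, U2AF2 and SRSF1. Control cells, with the endogenous level of hnRNPA1, were compared with cells of the inducible T7-hnRNPA1 line. Both received tetracycline for 24 h and blasticidin at 150 µg/mL for 3 days beforehand, with zeocin in control cells and hygromycin in the T7-hnRNPA1 line. There were 3 libraries per condition for U2AF2 and for SRSF1 and 2 for hnRNPA1, all from nuclear extracts. Whole-cell polyadenylated RNA gave 2 further samples per condition. The labels do not say whether replicates came from separate cultures, so p-values measure only the spread between these samples, which may be technical.

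Depth differed between the conditions in opposite ways. Control and overexpression libraries held 702563 to 1158060 and 2317615 to 3657197 reads in peaks for U2AF2, 125082 to 173766 and 175293 to 329448 for SRSF1, and 2508821 to 2973275 and 549365 to 575471 for hnRNPA1. Nearly all libraries list peaks from 6 reads upwards, so a gene without a peak is described as having no peak listed. U2AF2 overexpression replicate 3 lists peaks from 3 reads upwards and stands apart in this, and without it the U2AF2 test still called 19 members lower and 3 higher of 41. SRSF1 control replicate 2 also stands apart, as described with the SRSF1 results. Among markers of the line, VIM and CDH2 had peaks in 14 and 15 libraries, KRT8 in 1 and KRT18 in none. Of 7 markers of blood, liver, connective tissue and endothelium, LYZ had peaks in 13 libraries and the others in none. Reads in peaks of the HNRNPA1 transcript itself, before any scaling, were 1161 to 1336 in control and 229 to 302 in overexpression libraries of hnRNPA1. The hnRNPA1 control libraries were the deeper ones, with size factors (divisors for depth) of 2.56 and 2.21 beside 0.423 and 0.449 with overexpression. Unscaled reads on this transcript were 452 to 691 and 79 to 234 for U2AF2, and 115 to 279 and 150 to 357 for SRSF1. These reads count contacts and do not check the level of the protein.

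Translation starts when eIF2, carrying the initiator tRNA, joins the small ribosomal subunit with eIF1, eIF1A, eIF3 and eIF5. The cap-binding protein eIF4E and the scaffold eIF4G bring in the mRNA, and eIF2B recharges eIF2 with GTP, a step that the eIF2 kinases block under stress. eEF1A delivers aminoacyl-tRNAs to the elongating ribosome, eEF2 moves it along, and eIF5A helps it over difficult peptide bonds. In the nucleus the pre-mRNAs of these genes are spliced like others: U2AF2 recognises the pyrimidine tract before 3′ splice sites, SRSF1 binds exons, and hnRNPA1 is known chiefly as a repressor of splice sites. Some of these genes also carry small nucleolar RNAs (snoRNAs), which guide the modification of ribosomal RNA, within their introns.

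Values are reads in the deposited peaks of a gene, divided by a size factor for the library ("normalised reads"). They depend on the amount of the transcript and on the contacts per transcript, which cannot be told apart here. Of all U2AF2 reads, members took 0.499% ± 0.026 in control libraries and 0.451% ± 0.011 in overexpression libraries (SD, n = 3 each). The shares for hnRNPA1 were 0.799% ± 0.030 and 0.754% ± 0.079 (SD, n = 2 each). SRSF1 shares were 1.06, 2.35 and 0.99% in control libraries and 0.896, 0.898 and 0.914% with overexpression. The total over the members therefore moved little for U2AF2, while single members moved in both directions, from -3.83 to 1.61 in log2 change. EIF4G3 alone held 264, 257 and 687 of 3312, 3944 and 6044 unscaled member reads in U2AF2 control libraries. With overexpression it held 2942, 2422 and 3712 of 12250, 10665 and 16071. In hnRNPA1 it held 10117 of 24382 and 8888 of 19508 in control libraries, and 2148 of 4452 and 1737 of 4019 with overexpression. Shares without EIF4G3 were not computed.

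In U2AF2 iCLIP, 41 members had a peak in every library and were tested. Of these, 19 fell with hnRNPA1 overexpression (46.3%, beside 30.7% of all 6829 genes tested) and 3 rose (7.32%, beside 28.6%), in limma with Benjamini-Hochberg adjustment over all genes at 0.05. The median log2 change was -0.84 for the members and 0.02 for all genes. The member median was -0.46 without peaks that overlap another gene's, -0.44 without shared intervals, -0.21 with genes listed in as few as 50% of the libraries (all genes 0.76) and 0.08 for numbers of peaks. Control and overexpression values did not overlap for 22 members that were lower and 4 that were higher (33.3% and 34.3% of all genes). With total reads as the scale, which moved the median of all genes to 0.82, 17 members were lower and 11 higher, and 72.4% of all calls were higher in place of 48.2%. Thinned to the depth of the shallowest library, 9 of 21 were lower and 2 higher, beside 1514 lower and 1299 higher of all 4496 genes. With the number of peaks in place of reads 7 of 41 were lower and 3 higher, beside 904 and 589 of all 6829 genes. By number of peaks EEF1A1 was at -0.68 (adjusted p = 0.141), EEF2 at -0.46 (0.306), EIF2A at -0.68 (0.213), EIF3B at -0.15 (0.758) and EIF5A at -0.06 (0.912), whereas EIF2S3 (-1.28), EIF3E (-1.69) and EIF1AX (-1.30) still passed. Without control replicate 2 or control replicate 3, 6 members were higher. Mean reads before any scaling were lower with overexpression for 9 of the 19 that fell. The overexpression libraries were deeper, but the 19 had already been chosen as lower in these same data. The share among all genes was not counted.

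**Figure D1:**
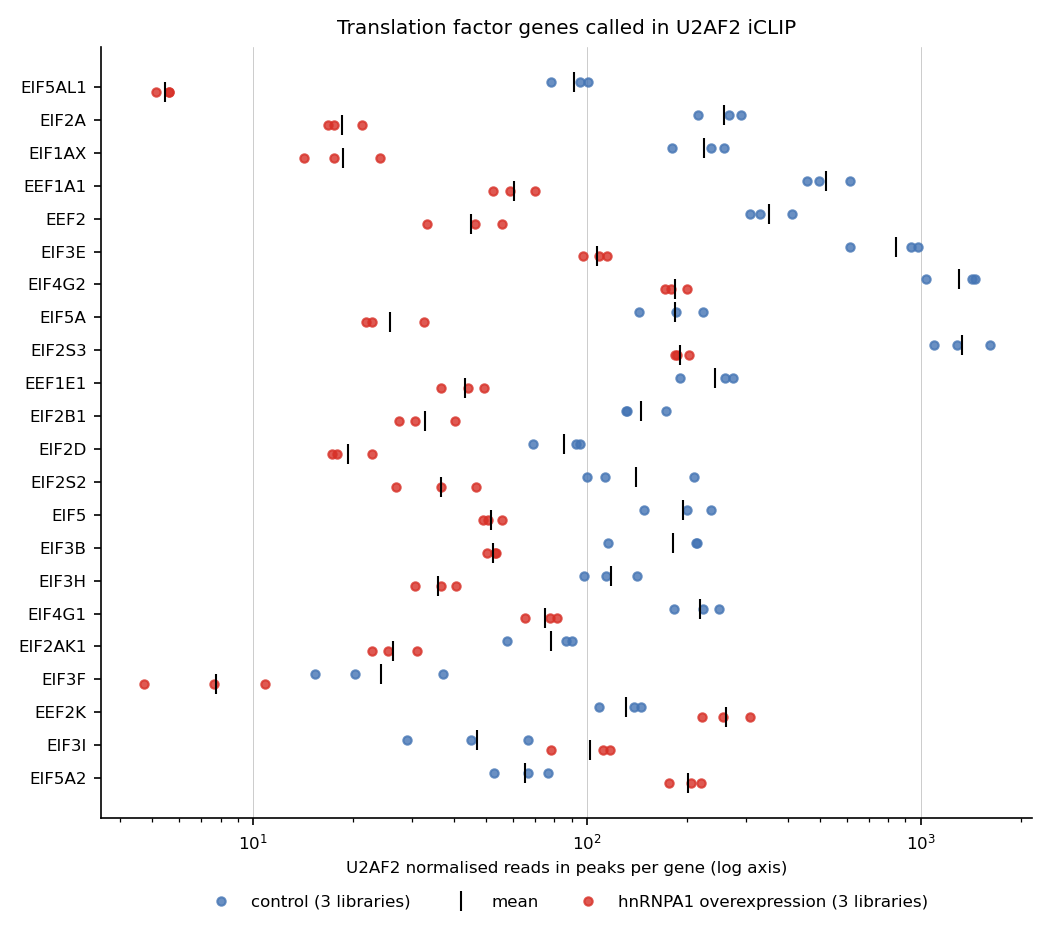
U2AF2 normalised reads in peaks per gene (log axis) for the 22 translation factor genes called higher or lower, with 1 point per library in control cells (blue) and with hnRNPA1 overexpression (red) and ticks at the group means. The 2 colours do not overlap in any of the 22 genes, and EEF2K, EIF3I and EIF5A2 at the bottom are the genes with red to the right.

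Both elongation steps were among the falls. EEF1A1 encodes eEF1A, one of the most abundant proteins of the cell. It had 457, 495 and 613 normalised U2AF2 reads in control libraries and 59.0, 70.1 and 52.4 with overexpression. The log2 change was -3.09 ± 0.21 (SE, n = 3 per condition, limma adjusted p = 1.12e-05). EEF2, the gene of the translocase, had 413, 331 and 309 normalised reads in control libraries and 46.2, 55.9 and 33.1 with overexpression (log2 change -2.96 ± 0.26). EEF1E1, whose product belongs to the multi-tRNA synthetase complex, fell by 2.45. EEF1D, a subunit of the exchange factor that reloads eEF1A, was at -0.48 ± 0.27 and did not pass (adjusted p = 0.155). EEF1A1 has many processed copies in the genome, and reads from near-identical copies could have been split or lost in the authors' mapping.

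Genes of start codon selection and the ternary complex had 6 falls among 7 tested (beside 30.7% of all genes), with a median log2 change of -2.09. The largest total was in EIF2S3, the gamma subunit of eIF2 that binds GTP and the initiator tRNA. EIF2S3 had 1289, 1610 and 1093 normalised reads in control libraries and 186, 202 and 184 with overexpression. Its log2 change was -2.78 ± 0.18 (adjusted p = 8.5e-06). EIF2A, which can bring initiator tRNA to the ribosome apart from eIF2, went from 266, 289 and 216 to 17.5, 16.8 and 21.2 normalised reads, a log2 change of -3.72 ± 0.26. EIF1AX encodes the scanning factor eIF1A. It went from 257, 236 and 180 to 17.5, 14.2 and 24.0 normalised reads (-3.54 ± 0.30). The control libraries lay far above the overexpression libraries in all 3 genes. EIF2D, EIF2S2 (the beta subunit of eIF2) and EIF5 (which triggers GTP hydrolysis by eIF2) fell by 2.09, 1.87 and 1.86. EIF5B, which joins the ribosomal subunits, was at 0.29 ± 0.48 and did not pass.

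Around eIF2, EIF2B1 fell by 2.13 and EIF2AK1, the haem-regulated eIF2 kinase, by 1.52. The other tested genes of these groups, EIF2B3, EIF2B5 and EIF2AK4, lay between -0.40 and 0.52. EIF2B5 cannot be read as its own value: its gene ID in the files reaches over neighbouring genes, and 85.1% of its U2AF2 control reads lie in peaks that overlap peaks of other genes.

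Of 11 tested eIF3 subunit genes, 4 fell (beside 30.7% of all genes), 1 rose (beside 28.6%) and 6 did not pass. EIF3E led with 616, 979 and 934 normalised reads in control libraries and 97.5, 115 and 109 with overexpression (log2 change -2.94 ± 0.22). EIF3B, a core subunit, EIF3H and EIF3F fell by 1.71, 1.68 and 1.5. EIF3I went the other way, from 66.5, 45.0 and 28.9 to 112, 117 and 78.0 (1.17 ± 0.36, adjusted p = 0.0227). EIF3I did not pass without overexpression replicate 1 (adjusted p = 0.083) or 2 (0.0827), and EIF3F did not pass when genes listed in as few as 50% of the libraries were let in. EIF3C and EIF3CL are near-identical copies, so reads could have been assigned to either.

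The totals of the eIF4G scaffolds gave different calls, but those of EIF4G2 and EIF4G1 rest mostly on sites shared with snoRNA genes. These sites, described below, held 86.2% and 88.9% of their U2AF2 control reads. By number of peaks EIF4G2 was at 0.24 and EIF4G1 at 0.88. EIF4G2 (also called DAP5), which supports initiation without eIF4E, had 1451, 1424 and 1039 normalised reads in control libraries and 172, 199 and 179 with overexpression (-2.81 ± 0.18). EIF4G1, the main scaffold, went from 223, 249 and 182 to 77.8, 81.3 and 65.2 (-1.52 ± 0.22). EIF4G3, the third paralog, had 763, 680 and 1166 in control libraries and 1258, 1230 and 1157 with overexpression, and its log2 change of 0.52 ± 0.21 did not pass (adjusted p = 0.0585). Without control replicate 3, EIF4G3 was at 0.75 (adjusted p = 0.00427). EIF4E, the cap-binding protein, was at -0.16 ± 0.27 and EIF4B at 0.46 ± 0.36, neither called. Per kilobase spanned by peaks, control levels were 114 normalised reads for EIF4G2, 10.6 for EIF4G1 and 2.35 for EIF4G3, whose peaks span 370 kb. The levels of EIF4G2 and EIF4G1 include the snoRNA sites.

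The eIF5A genes gave opposite calls. EIF5A went from 223, 143 and 185 to 21.8, 32.5 and 22.8 normalised reads (-2.79 ± 0.30). Its close copy EIF5AL1 fell by 3.83, and reads could have been assigned to either of these copies. EIF5A2, a paralog of EIF5A with restricted expression in normal tissues, had 66.5, 52.9 and 76.4 normalised reads in control libraries and 220, 205 and 176 with overexpression. That was a log2 change of 1.61 ± 0.24 (adjusted p = 0.000652), called in all 19 alternatives run. Its reads lie almost wholly in a stretch at chr3:170609929-170610198 (hg19, minus strand), with means of 65.3 normalised reads in control cells and 194 with overexpression. EEF2K, the kinase that inhibits eEF2, rose as well, from 145, 109 and 138 to 255, 222 and 308 (1.00 ± 0.21, adjusted p = 0.00443). At its strongest control site EEF2K had means of 94.3 and 91.6 in the 2 conditions. A neighbouring stretch at chr16:22295768-22295901 had a mean of 10.2 in control cells, all of it from 1 library, and 76.5 with overexpression.

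**Figure D2:**
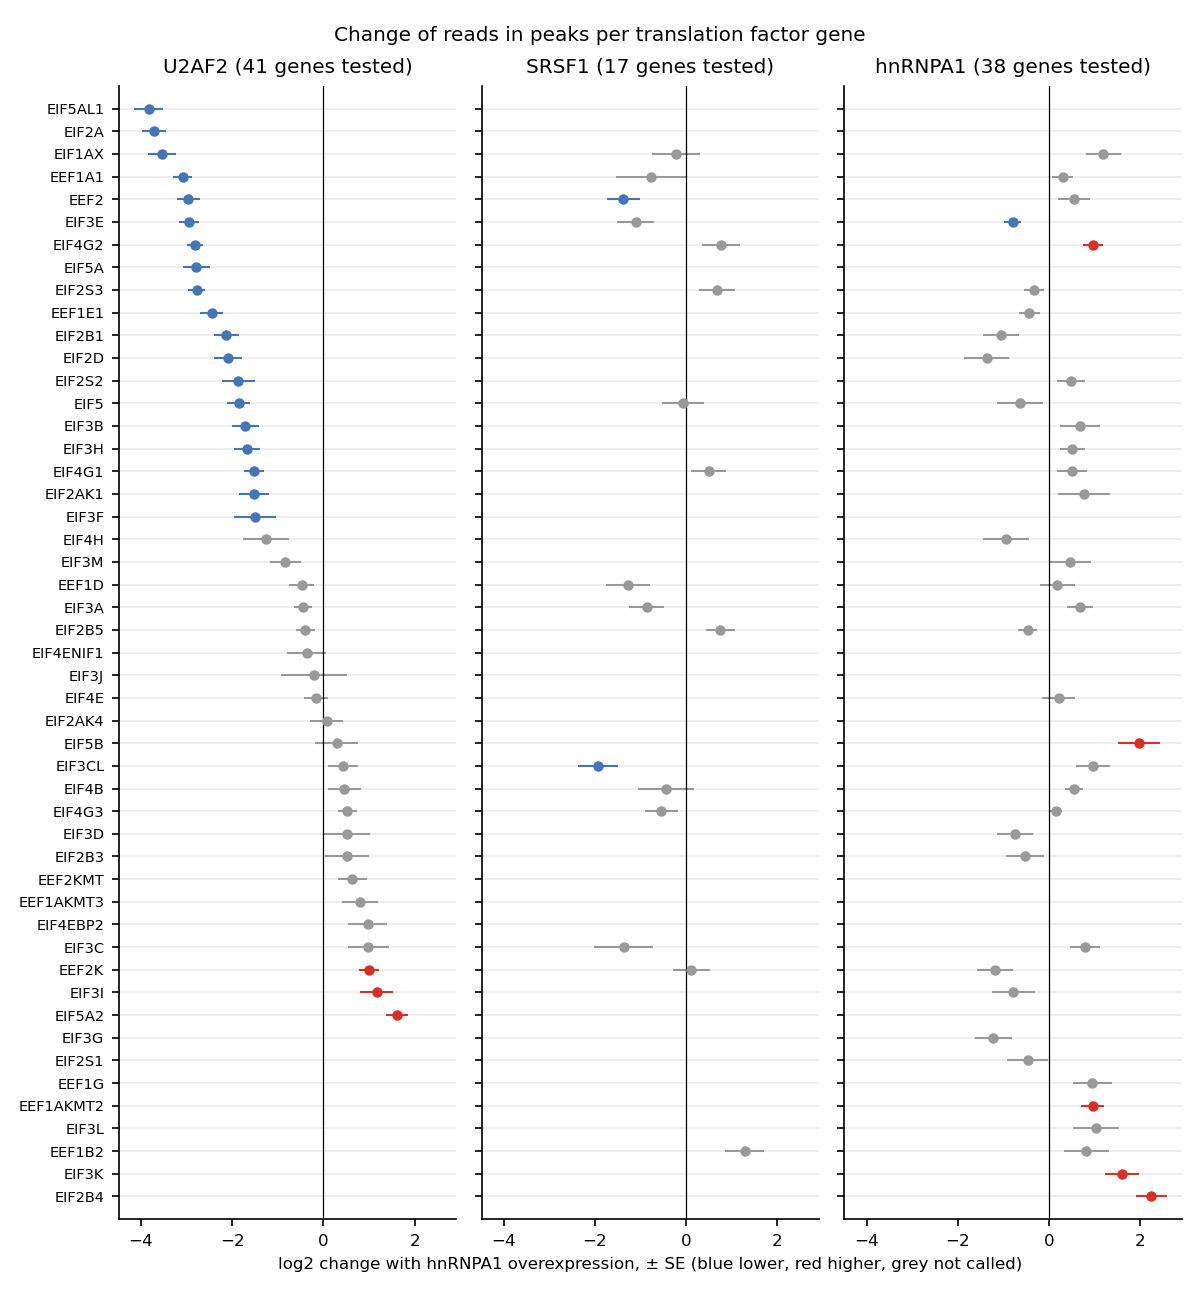
Log2 change with hnRNPA1 overexpression ± SE for each member tested in U2AF2 (41), SRSF1 (17) and hnRNPA1 (38) iCLIP, ordered by the U2AF2 change (blue lower, red higher, grey not called). The U2AF2 panel reaches from -3.83 for EIF5AL1 to 1.61 for EIF5A2, whereas SRSF1 lies between -1.94 and 1.28 and hnRNPA1 between -1.37 and 2.24.

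Many mRNAs of the translation machinery begin with a terminal oligopyrimidine (TOP) tract, a C at the first base followed by a run of pyrimidines, through which the cell sets their translation. A C followed by at least 4 further C or T bases at the RefSeq start was searched on the gene's strand in the promoter sequences of RefSeq (GRCh38.p14). It was found in 11 of 63 entries for members (17.5%) and in 4.07% of all 35116 entries; 14 members were not matched in that table. Of the 9 such members tested in U2AF2, 6 fell and none rose, and of 23 tested members with another start 9 fell (39.1%) and 3 rose. Among all genes tested, 154 of 369 with such a start fell (41.7%) and 1436 of 4767 with another start (30.1%). The 6 are shown because they are the members with this start whose U2AF2 reads fell. Each line gives 10 bases before the start and 20 from it, 5′ to 3′, with the pyrimidine run in capitals:
EEF1A1: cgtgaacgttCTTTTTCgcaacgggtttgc
EEF2: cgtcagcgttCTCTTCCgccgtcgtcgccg
EIF2A: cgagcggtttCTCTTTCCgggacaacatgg
EIF2D: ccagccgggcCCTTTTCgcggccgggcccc
EIF2S3: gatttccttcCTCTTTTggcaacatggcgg
EIF3F: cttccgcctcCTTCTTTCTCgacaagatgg
The runs are 7 to 10 bases long. EIF3D, EIF3M and EIF4B also start this way and were not called in U2AF2, and a match describes these letters only.

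Several of the strongest sites were shared with snoRNA genes. In EIF4G2, 86.2% of U2AF2 control reads lay at chr11:10823009-10823138 (hg19, minus strand), where peaks are also listed under SNORD97. That site had 1234, 1270 and 871 normalised U2AF2 reads in control libraries and 11.5, 33.5 and 10.6 with overexpression, a ratio of means of 0.0165. Without peaks that overlap a peak of another gene, EIF4G2 was at -0.05 (adjusted p = 0.84), so its call ended.

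EEF2 carries SNORD37 at chr19:3982503-3982577, EIF4G1 carries SNORD66 at chr3:184043483-184043568, and EIF1AX holds a snoRNA listed as RF00493 at chrX:20154162-20154264. U2AF2 went from 275, 161 and 171 to 13.2, 11.2 and 7.17 normalised reads at the EEF2 site, and from 197, 214 and 170 to 12.4, 10.7 and 10.6 at the EIF4G1 site. At the EIF1AX site it had 83.8, 55.6 and 69.6 normalised reads in control libraries and no peak listed with overexpression. U2AF2 was thus lower in every overexpression library at these sites. Outside them EEF2 and EIF1AX still fell (-2.08 and -2.96), whereas EIF4G1 could not be tested without peaks that overlap another gene and was not called (-0.25, adjusted p = 0.844) without intervals shared with another gene.

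SRSF1 and hnRNPA1 had other patterns at the same sites, described here without a test because the sites were picked after their values were seen. SRSF1 at the EIF4G2 site had 34.6, 69.9 and 70.3 normalised reads in control libraries and 139, 115 and 153 with overexpression. At the EIF4G1 site SRSF1 went from 77.6, 63.2 and 91.9 to 217, 169 and 165, and at SNORD51 in EEF1B2, a subunit of the eEF1 exchange factor, from 21.5, 16.6 and 29.2 to 73.5, 44.2 and 48.9. SRSF1 was higher in every overexpression library at these 3 sites. The EEF2 site went the other way, with 401, 489 and 351 normalised SRSF1 reads in control libraries and 173, 117 and 161 with overexpression. hnRNPA1 itself had 104 and 103 normalised reads at the EIF4G2 site in control libraries and 267 and 272 with overexpression, and its means at the EIF4G1 site were 69.3 and 40.1. SNORA19 in EIF3A had no SRSF1 peak listed in control libraries and a mean of 18.3 ± 3.07 normalised reads with overexpression (SD, n = 3).

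**Figure D3:**
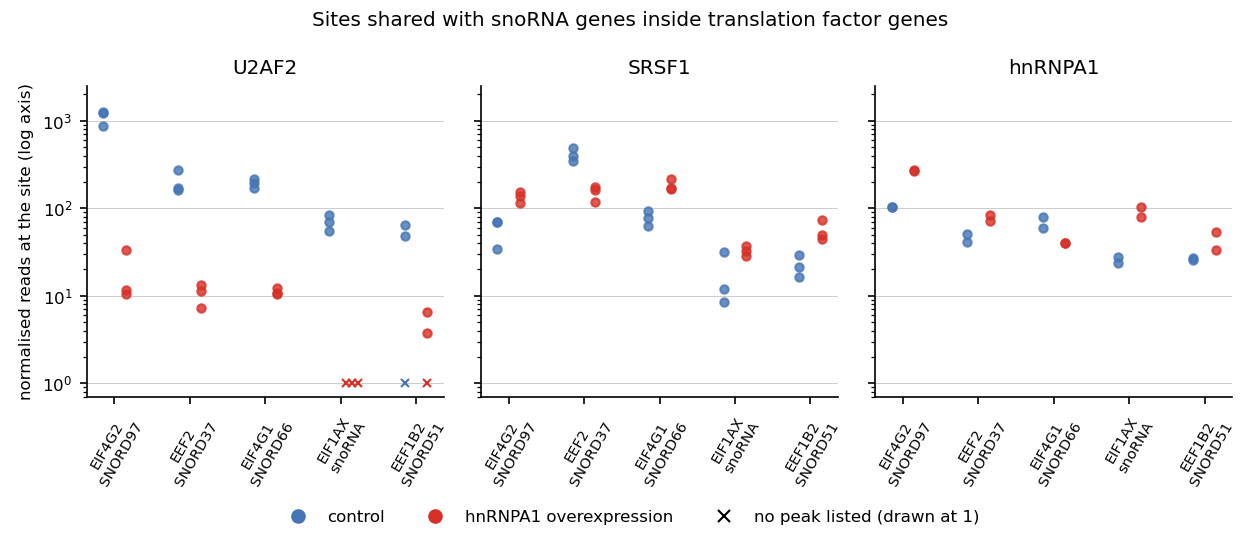
Normalised reads (log axis) at sites shared with snoRNA genes inside 5 translation factor genes, 1 point per library, in U2AF2, SRSF1 and hnRNPA1 iCLIP, with crosses at 1 for libraries with no peak listed. In U2AF2 the control points (blue) with a peak lie above all overexpression points (red) of the same site, while in SRSF1 the EEF2 site is the only one of the 5 whose red points all lie below the blue ones.

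Other U2AF2 sites, where no peak of another gene is listed, had signal only or almost only in control libraries. Within EIF2S3, 3 sites had means of 239, 204 and 193 normalised reads in control cells and no peak listed with overexpression; the first lies at chrX:24092058-24092356 and had 205, 317 and 195 normalised reads. The EIF2S3 reads that remained lie mostly under another gene ID on the same strand, with 69.1% of the overexpression reads in peaks overlapping that ID. EIF2A had 199, 106 and 182 normalised reads at chr3:150282221-150282948 in control libraries and no peak listed there with overexpression. In EEF1A1 the stretch at chr6:74227198-74227612 went from 251, 241 and 226 to 2.56, 7.61 and 4.05. EIF1, which guards start codon choice, was not tested because it lacked a peak in 1 library; its site at chr17:39847779-39847923 had a mean of 80.0 in control cells and no peak listed with overexpression. The signal at these sites was present in every control library.

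Over all members, U2AF2 peaks merged into 1686 sites. Of these, 69 had peaks in at least 2 control libraries and no overexpression library, 553 in at least 2 overexpression libraries and no control library, and 49 in at least 2 of each. The overexpression libraries were deeper, and the part of depth in the gained sites was not tested. EIF4G3 alone held 351 of the sites, 151 of them with overexpression only. Its site at chr1:21371139-21371225 had means of 10.8 in control cells and 92.2 with overexpression, while chr1:21501579-21501883 had a mean of 106 in control cells and no peak listed with overexpression. Losses and gains thus lay side by side in this gene, whose total did not pass the test.

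In hnRNPA1 iCLIP, EIF4G3 stood first among the members. It had 3956 and 4015 normalised reads in control libraries and 5074 and 3871 with overexpression, rank 13 of 14096 genes with a control peak. Those reads spread over 372 sites, the largest with 2.67% of the control reads, and the level per kilobase of span was 10.8, below the 56.3 of EEF1A1. EIF3E came next with 1091 and 866 in control libraries and 520 and 600 with overexpression, and it fell (-0.80 ± 0.18, limma adjusted p = 0.0302, n = 2 per condition).

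Of 38 members tested in hnRNPA1, 5 rose (13.2%, beside 9.5% of all 5738 genes) and 1 fell (2.63%, beside 8.33%). The members' shares were near those of all genes. Control and overexpression values did not overlap for 12 members that were lower and 19 that were higher (33.0% and 32.7% of all genes). The 5 were EIF2B4 (the delta subunit of eIF2B, 2.24 ± 0.34), EIF5B (1.97 ± 0.46), EIF3K (1.60 ± 0.37), EEF1AKMT2 (a lysine methyltransferase of eEF1A, 0.96 ± 0.25) and EIF4G2 (0.96 ± 0.22). EIF2B4 rested on few reads, with 13 and 9 before scaling in control libraries and 12 and 10 with overexpression. EIF4G2 went from 196 and 190 to 404 and 348 normalised reads, and was at 0.52 (adjusted p = 0.245) without peaks that overlap another gene. All EEF1AKMT2 reads lie in peaks that overlap peaks of other genes. Thinned to the shallowest library, none of 22 members rose and 2 fell, and leaving out control replicate 1 or control replicate 2 left 1 member higher. The members that fell numbered 0 without control replicate 1, 3 without overexpression replicate 1 and 2 without overexpression replicate 2. With total reads as the scale, which moved the median of all genes to -0.16, the calls over all genes were 38.6% higher in place of 53.3%, and 4 members were higher and 1 lower.

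A further 8 members had a hnRNPA1 peak in both control libraries and none listed with overexpression: EEF1AKMT1, EIF1AD, EIF2A, EIF2AK3, EIF2B2, EIF4ENIF1, EIF5AL1 and EIF6. Over all genes 27.3% of 14214 had this pattern, and 13.8% of the 58 members. The 8 had control means of 3.31 to 39.6 normalised reads, and the overexpression libraries were the shallower ones. No member had the opposite pattern in hnRNPA1. In U2AF2, EIF4E3 had no peak listed in control libraries and 2.99, 3.05 and 8.11 normalised reads with overexpression. EEF1A2, the paralog of EEF1A1 of muscle and neurons, had a peak in 1 library only, with 15 reads in U2AF2 control replicate 2.

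SRSF1 iCLIP was shallow, and 17 members had a peak in every library. None rose (beside 4.17% of all 1845 genes) and 2 fell (11.8%, beside 2.6%): EIF3CL, at -1.94 ± 0.44 (limma adjusted p = 0.0258), and EEF2, at -1.38 ± 0.36 (adjusted p = 0.0418). EIF3CL went from 44.9, 46.6 and 33.5 to 6.58, 15.4 and 9.78 normalised reads, and EEF2 from 428, 988 and 364 to 213, 181 and 226. Neither gene's groups overlapped, which held in the lower direction for 14.3% of all 1845 genes. Without control replicate 1, or without any of the overexpression replicates, both calls were lost, with no member lower. With total reads as the scale, which moved the median of all genes to -0.20, 3 members fell, and 38.6% of all calls were higher in place of 61.6%. EEF2 was at 0.06 (adjusted p = 0.976) without peaks that overlap another gene. EEF1B2, at 1.28 ± 0.43, did not pass (adjusted p = 0.0985).

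SRSF1 control replicate 2 held far more reads on EEF1A1, EEF2 and EEF1G than the other control libraries, but not on EEF1B2, EEF2K or EEF1E1, which were lowest in it. EEF1A1 had 199, 1657 and 105 normalised reads in control libraries 1 to 3 and 176, 197 and 199 with overexpression, and was not called (-0.77 ± 0.76). EEF1G and EIF5A had 138 and 61.6 normalised reads in that library. Without it, 3 of 19 members rose (EIF4G2 at 1.15, EIF2B5 at 1.04 and EIF4G1 at 0.91) and 2 fell (EIF3CL at -1.90 and EEF2 at -0.97), and EEF1A1 was at 0.36. The 3 genes that rose there are those with the SNORD97 and SNORD66 sites, EIF2B5 through the overlap of its ID with EIF4G1.

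**Figure D4:**
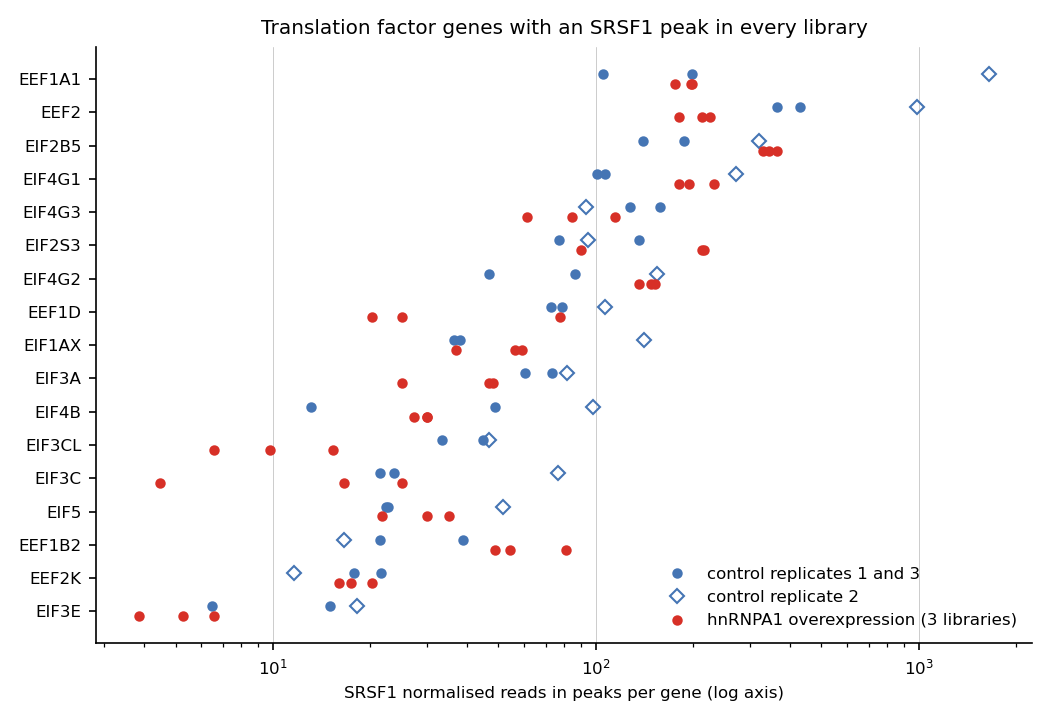
SRSF1 normalised reads in peaks per gene (log axis) for the 17 members with a peak in every library, with control replicate 2 as open diamonds, the other control libraries in blue and overexpression libraries in red. The diamond of EEF1A1 lies at 1657, beside 105 and 199 in the other control libraries.

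For 16 members the response of U2AF2 was set against that of SRSF1, as an interaction of protein and condition. The U2AF2 change lay below that of SRSF1 for 8 (beside 28.4% of all 1656 genes tested) and above it for 3 (beside 22.3%). EIF4G2 differed most, at -2.81 in U2AF2 and 0.76 in SRSF1 (difference -3.57 ± 0.49, limma adjusted p = 6.24e-05), followed by EIF2S3 at -2.78 and 0.68 (-3.46 ± 0.48) and EIF1AX at -3.54 and -0.22 (-3.32 ± 0.64). EIF4G1, EIF3E, EIF5, EEF2 and EIF2B5 made up the 8. In EIF4G2 the SNORD97 site held 86.2% of the U2AF2 and 60.7% of the SRSF1 control reads. By number of peaks the EIF4G2 difference was 1.07. EIF4G1 and EIF2B5 both count the reads of the SNORD66 site, so these 2 are not separate values. EIF3CL, EIF3C and EIF4G3 had U2AF2 changes above those of SRSF1. Without peaks that overlap another gene 2 of 13 were below and 2 above, beside 351 and 282 of all 1364 genes. The larger share of members below was thus absent in that setting. Scaling by total reads moved the median difference of all genes from 0.07 to 1.05. It gave 3 members below and 7 above (70.6% of all calls above, in place of 44.0%). Without SRSF1 control replicate 2, 10 of 18 were below and 4 above, and without any of the U2AF2 overexpression replicates 7 of 16 were below and 1 above. Without U2AF2 control replicate 1, 9 of 17 were below and 1 above.

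Against hnRNPA1, which shares the U2AF2 libraries with the comparison before, the U2AF2 change lay below for 13 of 30 members (beside 29.9% of all 4403 genes) and above for 2 (beside 19.2%). EIF1AX had the largest difference, at -3.54 in U2AF2 and 1.19 in hnRNPA1 (-4.73 ± 0.52, limma adjusted p = 2.5e-05). EIF4G2 followed at -2.81 and 0.96 (-3.77 ± 0.29), but was at -0.58 (adjusted p = 0.212) without peaks that overlap another gene. In that setting 10 of 28 members were below and 2 above, beside 1162 and 732 of all 3954 genes. Further differences were in EEF2 at -2.96 and 0.55, and EEF1A1 at -3.09 and 0.30. EEF2K (1.00 and -1.19) and EIF3I (1.17 and -0.78) had U2AF2 changes above those of hnRNPA1. Members above numbered 1 without hnRNPA1 control replicate 1, hnRNPA1 overexpression replicate 2 or U2AF2 overexpression replicate 1 or 2 and 4 without hnRNPA1 overexpression replicate 1 or U2AF2 control replicate 3. The median difference was -1.18 for members and -0.44 for all genes, and scaling by total reads, which moved the latter to 0.53, gave 6 members above and 11 below (67.7% of all calls above, in place of 39.1%).

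The overlap of U2AF2 with hnRNPA1 on the members was measured as a share of reads and of peaks. In control libraries 74.9, 66.9 and 67.3% of U2AF2 reads on members lay in peaks that overlap a hnRNPA1 control peak by at least 1 nt on the same strand. With overexpression the shares were 45.2, 46.4 and 39.9%. Over all genes they were 61.4, 57.7 and 56.6% in control libraries and 64.0, 64.5 and 52.9% with overexpression. The member share was thus above that of all genes in every control library and below it in every overexpression library. It includes the snoRNA sites, where hnRNPA1 control peaks are also listed. The SNORD97 site alone had 427, 480 and 513 of 3312, 3944 and 6044 unscaled member reads in control libraries. With overexpression it had 27, 66 and 34 of 12250, 10665 and 16071. SNORD66 reads count under both EIF4G1 and EIF2B5, and shares without these sites were not computed. Counted as peaks, the overlapping share was lower with overexpression on members (means of 50.5 and 24.0%) and also over all genes (43.9 and 28.6%). For SRSF1 the member shares of reads were 74.8% ± 4.57 and 79.4% ± 2.86 (SD, n = 3 each), close to 74.4% and 79.7% over all genes. These are descriptions, with no test, because a value over chosen members gets none.

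**Figure D5:**
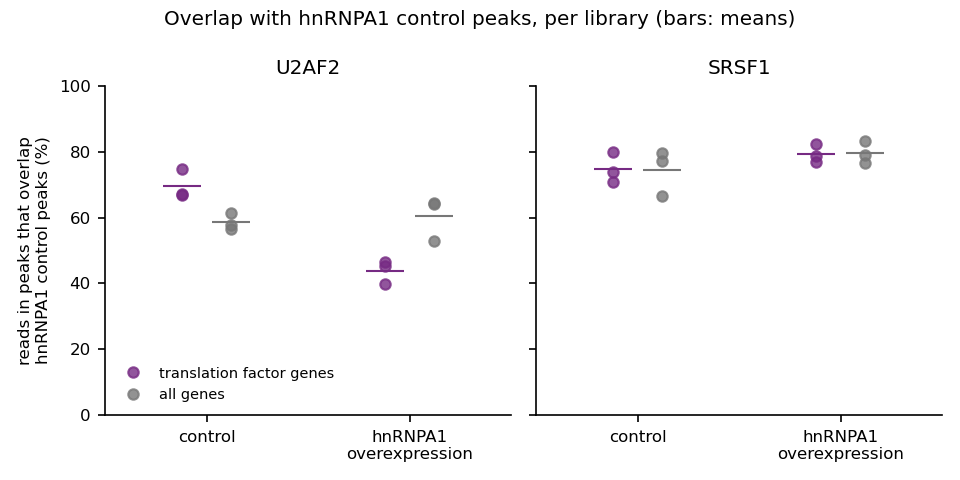
Share of reads in peaks that overlap hnRNPA1 control peaks (%), 1 point per library with bars at the means, for translation factor genes (purple) and all genes (grey), in U2AF2 and SRSF1 iCLIP. In U2AF2 the purple points go from 66.9 to 74.9% in control libraries to 39.9 to 46.4% with overexpression.

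Other genes of translation were counted in U2AF2 in the same way, beside 30.7% lower and 28.6% higher over all genes. Of 15 tested genes for termination, recycling, poly(A) binding and regulation, 9 fell and none rose. DDX3X, a helicase that unwinds mRNA leaders, was at -3.94 ± 0.17, PABPC4 at -2.75 ± 0.25 and PABPC1, the main poly(A)-binding protein, at -2.62 ± 0.18. Among 12 cytosolic tRNA synthetase genes 7 fell and 3 rose, with LARS1 at -2.40 ± 0.13 and SARS1 at 2.35 ± 0.58. Of 6 mitochondrial factor genes 2 fell. In SRSF1 none of the 10 tested in these lists was called. In hnRNPA1, PAIP2 (2.15), RARS1 (1.92) and MARS1 (1.98) rose and DDX3X fell (-0.50) among 32, beside 9.5% higher and 8.33% lower over all genes.

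The authors' deposited table of 251 skipped-exon events lists 3 in members; the table holds only events past the authors' thresholds, so its differences are selected. For EIF4E (chr4:99823027-99851786) the deposited inclusion was 0.59 and 0.16 in control and 0.11 and 0.12 in overexpression samples. For EIF4G2 (chr11:10825834-10827594) the authors' deposited table gives 0.52 and 0.93 in control and 0.87 and 0.95 in overexpression samples, and for EEF1D 0.67 and 0.42 in control and 0.33 and 0.25 in overexpression samples. The control samples differed from each other by 0.43 for EIF4E and 0.41 for EIF4G2, more than the means of the conditions did (0.26 and 0.185). For EEF1D these differences were 0.25 and 0.255. In all 3 events the second control sample lay nearer to both overexpression samples than to the first control sample. The description of a control RNA-seq sample carries another prefix than the other controls, and its group was taken from its title. Whether this bears on the inclusion values was not tested. Within the span of the EIF4G2 event U2AF2 had 0, 17 and 0 reads in peaks before scaling in control libraries and 114, 107 and 50 with overexpression, and in that of the EIF4E event 0, 0 and 12 and then 48, 35 and 76. Within the EEF1D span U2AF2 had 7, 7 and 8 reads in control libraries and 181, 133 and 270 with overexpression. Scaled by size factors, the groups overlapped in the EIF4G2 span (0, 45.0 and 0 in control libraries against 48.7, 54.3 and 15.6) and in the EIF4E span (0, 0 and 20.4 against 20.5, 17.8 and 23.7). In the EEF1D span they did not overlap, with 20.2, 18.5 and 13.6 normalised reads against 77.4, 67.5 and 84.1.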

How the data were processed

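iCLIP peaks were deposited per library as lists on hg19. Per the file headers and the labels' protocols, reads were mapped with TopHat, Bowtie2 also being named in the submitters' processing notes, and peaks were called with CLIPper on each library. The deposited peak names carry a read count per peak, and the deposited score column a p-value. Reads were summed per gene, divided by median-of-ratios size factors, set on log2(value + 1) and tested with limma 3.58.1 (lmFit and eBayes with trend, R 4.3.3), leaving out genes that lacked a peak in any of that protein's libraries. Benjamini-Hochberg adjustment was over all genes at 0.05. Responses of 2 proteins were compared by the interaction of protein and condition. The procedure was tested on simulated data.

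Exon inclusion fractions and Bayes factors, which are ratios, come from the authors' deposited table. Tables were handled with Python 3.11.15 and pandas 2.3.3. Of 19362 gene IDs, 17814 (92.0%) were named from a table by ID; exon and intron annotation of hg19 was not used here.

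Members and gene lists were chosen with earlier results of these data known. The text names members called in a fit or an interaction, those with the most control reads, those with peaks in 1 condition only, those with a skipped-exon event and close paralogs. Leaving out peaks that overlap another gene's peak was an alternative chosen after seeing the data. Precision is limited by the 125082 to 3657197 reads in peaks per library.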

Additional observations from a re-analysis of the deposited data

Results flagged for a closer look

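The results in this section are members whose response to hnRNPA1 overexpression differed between proteins, by the interaction test in limma with adjustment over all genes. Each value is the U2AF2 log2 change minus that of the other protein. The U2AF2 libraries enter both sets of values.

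Against SRSF1, the U2AF2 change was lower by the following log2 differences: EIF4G2 -3.57, EIF2S3 -3.46, EIF1AX -3.32, EIF4G1 -2.01, EIF3E -1.83, EIF5 -1.80, EEF2 -1.58 and EIF2B5 -1.15. It was higher for EIF3CL (2.37), EIF3C (2.35) and EIF4G3 (1.07). The calls were lost in 15 of 25 alternatives for EIF2B5, whose reads lie mostly in peaks of other genes, in 13 of 24 for EIF4G3 and in 10 of 23 for EIF3C. By number of peaks the EIF4G2 difference was 1.07.

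Against hnRNPA1, scaffold and cap genes gave differences of -3.77 for EIF4G2 and -2.02 for EIF4G1. These calls were lost for EIF4G2 without overlapping peaks (-0.58) and by number of peaks (-0.36), and for EIF4G1 without shared intervals (-1.91, adjusted p = 0.282) and by number of peaks (-0.06). Elongation genes gave -3.51 for EEF2, -3.38 for EEF1A1 and -2.02 for EEF1E1, while EEF2K was above at 2.19. Genes around eIF2 gave -4.73 for EIF1AX, -2.45 for EIF2S3, -2.35 for EIF2S2 and -2.29 for EIF2AK1. The eIF3 genes gave -2.39 for EIF3B, -2.19 for EIF3H, -2.14 for EIF3E and -1.13 for EIF3A, with EIF3I above at 1.95. Calls were also lost in 6 of 21 alternatives for EIF3I and in 4 of 21 for EIF2AK1. For EIF3A the call was lost in 5 of 23 and the direction turned in 1 further alternative. EIF1AX kept its call in all 22.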

How the results depend on the processing

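Counts are of all calls, then of members. Depth differs between conditions and limits all 3 comparisons; the causes of the shifts below were not tested.

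For U2AF2, total reads as the scale gave 11 members higher, a peak p of at most 0.0001 gave 2563 calls, thinning gave 9 members lower, and numbers of peaks gave 1493 calls with 7 members lower, EIF4G1 at 0.88 and EIF4G2 at 0.24; calls lost that way include EEF1A1, EEF2, EIF2A, EIF3B and EIF5A. For SRSF1, calls and members lower were 466 and 1 with a peak in at least 50% of libraries, 29 and 0 with a peak in at least 1, 74 and 1 at the stricter peak p, 15 and 0 for numbers of peaks, and 26 and 0 without overlap with another gene's peak, where EEF2 was at 0.06. Thinning gave 81 calls, and leaving out shared intervals 1 member lower. For hnRNPA1 the 50% filter gave 4791 calls with 9 members lower, at least 1 library 4519 with 8 lower, and the stricter peak p 507 with 3 higher. Quantile normalization gave 3 higher and 3 lower, with EIF4G3 at -0.34, thinning 0 higher and 2 lower, and numbers of peaks 384 calls with 0 higher and 0 lower.

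For U2AF2 against SRSF1, members above were 1 with the 50% filter, 1 (4 below) with at least 1 library, 7 (3 below) with total reads, 1 (5 below, 346 calls) at the stricter peak p and 1 (5 below, 457 calls) thinned. Numbers of peaks gave 292 calls and 2 below, with EIF4G1 at 1.00 and EIF4G2 at 1.07; no overlap gave 2 below, and no shared intervals put EIF4G1 at 1.59. For U2AF2 against hnRNPA1, members above were 7 with the 50% filter (5065 calls), 8 with at least 1 library (5665 calls), 6 with total reads, 0 at the stricter peak p (884 calls, 8 below, EIF3A at 0.50) and 1 thinned (6 below). Numbers of peaks gave 681 calls and 2 below.

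Member shares of reads were 0.926% at the stricter peak p, 0.744% without shared intervals and 0.499% without overlap for SRSF1 with overexpression, and 0.416% without overlap for U2AF2 control. U2AF2 with overexpression had 0.424% at the stricter peak p, 0.469% without shared intervals, 0.355% thinned and 0.437% without overlap. hnRNPA1 had 0.867% at the stricter peak p and 0.950% thinned in control cells, and 0.853% at the stricter peak p with overexpression. With overlap over at least 50% of the peak, U2AF2 member reads on hnRNPA1 peaks were 58.4% in control cells and 39.6% with overexpression.

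Leaving out each replicate gave 3131 to 4539 U2AF2 calls (members higher 2 to 6, lower 18 to 22), 18 to 207 for SRSF1 (higher 0 to 3, lower 0 to 2), 547 to 1677 for hnRNPA1 (higher 1 to 7, lower 0 to 3), 698 to 1154 for U2AF2 against SRSF1 (above 1 to 4, below 7 to 10) and 1765 to 2482 for U2AF2 against hnRNPA1 (above 1 to 4, below 11 to 15). Same-numbered libraries did not deviate together (correlations of -0.01 to 0.02), and the main tests used no pairing. Such correlations, from few libraries per group, cannot show whether these libraries shared a culture or a batch. With the replicate number as a block there were 3880 U2AF2 calls (members 3 higher, 20 lower), SRSF1 had 1 member lower, hnRNPA1 had 1088 calls, and the differences between proteins gave 791 calls with 1 member above SRSF1 and 2073 against hnRNPA1. Leaving out overlaps with another gene's peak was chosen after seeing the data.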
